A study of Mus musculus with 9 samples.

Results

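The genes described here encode the rod phototransduction cascade, the proteins that turn the absorption of light by rhodopsin into a change of membrane current in rod photoreceptors. They are 10 genes chosen by name: Gnat1, Gngt1, Pde6a, Pde6b, Pde6g, Cnga1, Cngb1, Sag, Rcvrn and Grk1. Each of the 10 had exactly 1 probe set that the platform annotation assigns to that gene and to no other, and they are 10 of the 22180 genes that have a probe set of their own among the 41345 probe sets of the array. The paper names an earlier version of the Mouse Gene ST array than the one GEO's platform annotation describes, and every gene name here rests on that annotation. Their expression was compared between retinas of male C57BL/6 mice, bought at 6 weeks of age, that had received an intravitreal injection of 1 μL. The injection held PBS in the control group, 1 μg of anti-C5 antibody in PBS in the second group (labelled therapeutic) or 10 μg of anti-C5 antibody in PBS in the last group (labelled toxic). The labels name PBS as the control injection, whereas the methods of the paper name an IgG1 isotype antibody, so what the control eyes received is not settled; the label is followed here. The antibody is a chimera of chicken variable fragments and murine IgG1 that binds the MG4 domain of mouse complement component 5. Retinas were taken 7 days after the injection, and each array holds RNA of 4 retinas from 4 mice pooled before extraction, with 3 arrays in each group. The retinas were normal, with no laser lesion, and the question was whether the antibody is toxic to them.

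In the dark, rods keep a high level of cyclic GMP, which holds cation channels of the outer segment open. Light-activated rhodopsin switches on the G protein transducin, transducin releases the inhibition of the phosphodiesterase PDE6, and PDE6 hydrolyses cyclic GMP, so that the channels close and the cell hyperpolarises. Phosphorylation of rhodopsin by its kinase and the binding of arrestin end the response, and recoverin ties that kinase to calcium. Rods are the most numerous cells of the mouse retina, and loss of rods lowers the RNA of these genes in whole retina.

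The deposited values were already quantile-normalized, so likeness between arrays is no measure of their quality. The Pearson correlation between any pair across probe sets was 0.971 to 0.991, and array medians were 5.88 to 6.04 on the log2 scale. RNA quality was not examined here. Rod markers other than the 10 were present: of 8 listed markers 6 were measured, and the log2 of their summed linear values was 13.78 to 13.82 on the PBS arrays, 13.80 to 13.90 at 1 μg and 13.83 to 13.87 at 10 μg. The brightest of them, Prph2, had a mean of 12.88 and weighs most in the sum. At 10 μg 2 of the 6, Prph2 and Rom1, were higher than PBS without overlap, where 14.3% of named probe sets were, and 0 were lower without overlap. Rhodopsin itself and Nr2e3, a nuclear receptor of rods, were not analysed here.

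Neither dose of anti-C5 antibody changed any of the 10 genes past the test, and all 10 stayed within narrow limits. At 10 μg the log2 differences from PBS lay between -0.11 (Pde6b, a catalytic subunit of PDE6) and 0.062 (Rcvrn, recoverin), and at 1 μg between -0.050 (Gngt1, the γ subunit of transducin) and 0.053 (Rcvrn). The median over the 10 was -0.025 at 10 μg and 0.011 at 1 μg, beside 0.021 and 0.036 over all named probe sets. At 10 μg 3 of the 10 values were above 0 (55.7% of named probe sets), at 1 μg 6 of 10 (62.8%) and for 10 μg against 1 μg 3 of 10 (46.9%). These signs depended on the scaling, and at 10 μg the median changed sign: with each array centred on its median it was 0.019 with 6 values above 0, and with cyclic loess it was -0.052 with 1 above 0. At 1 μg the median was -0.034 with 1 value above 0 with cyclic loess, and for 10 μg against 1 μg it was 0.0084 with 6 above 0 with each array centred, beside -0.036. In pooled whole retina, fewer rods and less RNA per rod cannot be told apart.

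The test was limma over the 25341 named probe sets, with p-values adjusted by the Benjamini-Hochberg method. At an adjusted p below 0.05, 0 of the 10 passed at 10 μg, where 0.0197% of named probe sets did, 0 of 10 passed at 1 μg (0% of named probe sets) and 0 of 10 in the comparison of 10 μg with 1 μg (0%). At an unadjusted p below 0.05 the count was also 0 of 10 in each comparison, where 17.4% of named probe sets passed at 10 μg, 9.04% at 1 μg and 10.4% for 10 μg against 1 μg. That count depended on the setting: at 10 μg Pde6b was below 0.05 with cyclic loess, Pde6b and Grk1 with an intensity trend and Grk1 without 10 μg replicate 1. For 10 μg against 1 μg, Cngb1 and Grk1 were below it with an intensity trend and Grk1 without 10 μg replicate 1. Among the 2288 probe sets with a mean log2 value of at least 9, where all 10 genes lie, the shares were 26.8%, 11.3% and 13.8% in the same order. More than a 2-fold change with an unadjusted p below 0.05 was seen for 0 of the 10 in each comparison, against 1.13%, 0.679% and 0.0158% of named probe sets. The smallest unadjusted p among the 10 was 0.0877 at 10 μg, 0.369 at 1 μg and 0.109 for 10 μg against 1 μg, all from limma. Across the 30 differences of 10 genes in 3 comparisons, the 95% confidence intervals ran at the widest from 0.847-fold to 1.15-fold. A change of more than 1.2-fold either way, a limit chosen after the values were seen, lay outside the interval of 10 of 10 genes in each comparison. The same held for 32.1% of all named probe sets at 10 μg, 35.9% at 1 μg and 35.6% for 10 μg against 1 μg. Among the probe sets of mean at least 9 it held for 56.2%, 64.7% and 65.9% in that order of comparisons. The standard errors of the 10 genes were 0.0468 to 0.0780, against medians of 0.0930 over all named probe sets and 0.0654 over those of mean at least 9. These values are log2 signals from 8.96 to 13.55 on an array whose values end at 13.74, and whether the brightest probe sets understate changes was not tested.

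**Figure D1:**
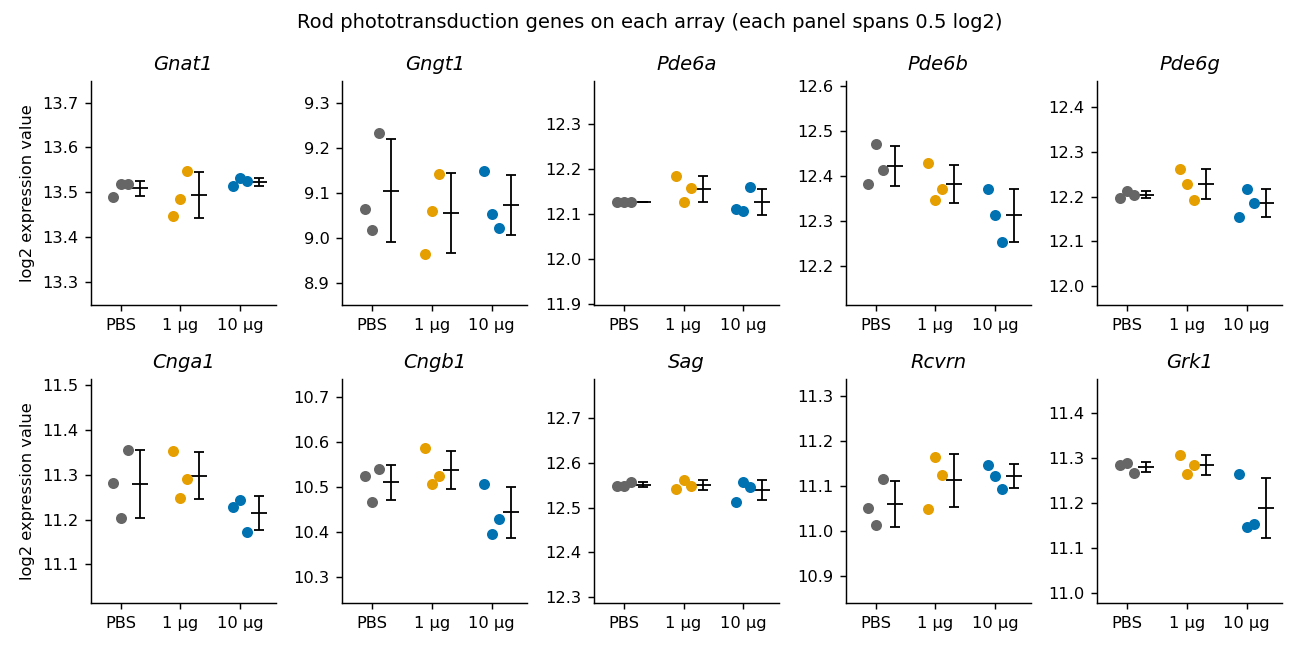
Log2 expression value of each rod phototransduction gene on each array, with PBS, 1 μg and 10 μg of anti-C5 antibody from left to right; points are arrays (pools of 4 retinas), and the bar beside them is the mean ± SD of 3. Each panel spans 0.5 log2; the groups overlap in most panels, and for Pde6b and Grk1 the 10 μg points lie below the PBS points.

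The trigger of the cascade is transducin, whose α subunit of rods is Gnat1 and whose γ subunit is Gngt1. Gnat1 had log2 values of 13.49, 13.52 and 13.52 on the PBS arrays, 13.45, 13.48 and 13.55 at 1 μg and 13.51, 13.53 and 13.52 at 10 μg. The 1 μg arrays spanned both the lowest and the highest of the 9 values, and the 3 groups overlapped. The difference from PBS was 0.015 at 10 μg (standard error 0.0505, limma's adjusted p = 0.903) and -0.015 at 1 μg (adjusted p = 0.943). Gngt1 had 9.06, 9.02 and 9.23 on the PBS arrays, 8.96, 9.06 and 9.14 at 1 μg and 9.15, 9.05 and 9.02 at 10 μg. It varied most of the 10 genes, over a range of 0.270 log2, but within the groups as much as between them, with a difference of -0.031 at 10 μg (standard error 0.0780, limma's adjusted p = 0.863).

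PDE6, the effector that transducin activates, consists of the catalytic subunits encoded by Pde6a and Pde6b and the inhibitory γ subunit encoded by Pde6g. Pde6a was at 12.13 on each of the 3 PBS arrays, at 12.19, 12.13 and 12.16 at 1 μg and at 12.11, 12.11 and 12.16 at 10 μg. The PBS values were equal to every deposited digit, so their SD of 0 is not a usable estimate of the spread between pools; the test used the moderated spread over all 9 arrays. The 10 μg and 1 μg values lay on both sides of, or at, the PBS value. Pde6b had 12.38, 12.47 and 12.41 on the PBS arrays, 12.43, 12.35 and 12.37 at 1 μg and 12.37, 12.31 and 12.25 at 10 μg. The 10 μg arrays were all below the PBS arrays, the nearest values differing in the second decimal, and the 1 μg arrays overlapped with both. Pde6b averaged 12.31 ± 0.059 at 10 μg and 12.42 ± 0.045 with PBS (SD, n = 3 each), a log2 difference of -0.11, or 0.927-fold, that did not pass (standard error 0.0568, 95% interval -0.24 to 0.020, limma's adjusted p = 0.36). The inhibitory subunit Pde6g had 12.20, 12.21 and 12.20 on the PBS arrays, 12.26, 12.23 and 12.19 at 1 μg and 12.15, 12.22 and 12.19 at 10 μg. Its groups overlapped, with a difference of -0.018 at 10 μg (limma's adjusted p = 0.875) and 0.024 at 1 μg (adjusted p = 0.9).

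The channel that cyclic GMP keeps open in rods is built from the subunits encoded by Cnga1 and Cngb1. Cnga1 had 11.28, 11.20 and 11.36 on the PBS arrays, 11.35, 11.25 and 11.29 at 1 μg and 11.23, 11.24 and 11.17 at 10 μg. The 10 μg arrays lay within or below the range of PBS and below all 1 μg arrays. Its difference was -0.065 at 10 μg against PBS (limma's adjusted p = 0.606) and -0.082 between 10 μg and 1 μg (standard error 0.0604, adjusted p = 0.629). Cngb1 had 10.53, 10.47 and 10.54 on the PBS arrays, 10.59, 10.51 and 10.52 at 1 μg and 10.51, 10.40 and 10.43 at 10 μg. The 10 μg arrays overlapped with PBS through their first replicate, and the difference was -0.067 against PBS (standard error 0.0558, limma's adjusted p = 0.564) and -0.096 against 1 μg (adjusted p = 0.561).

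Among the genes that end the light response, Grk1 encodes rhodopsin kinase, Sag rod arrestin, which binds phosphorylated rhodopsin, and Rcvrn the calcium sensor recoverin, which inhibits the kinase when calcium is high. Grk1 had 11.29, 11.29 and 11.27 on the PBS arrays, 11.31, 11.26 and 11.28 at 1 μg and 11.27, 11.15 and 11.15 at 10 μg. All 10 μg arrays were below all PBS arrays, although the first 10 μg replicate lay at nearly the same value as the third PBS replicate, and the distance came from the remaining 10 μg replicates. Grk1 averaged 11.19 ± 0.066 at 10 μg and 11.28 ± 0.012 with PBS (SD, n = 3 each), a difference of -0.091, or 0.939-fold, that did not pass (standard error 0.0536, 95% interval -0.21 to 0.031, limma's adjusted p = 0.416). Sag had 12.55, 12.55 and 12.56 on the PBS arrays, 12.54, 12.56 and 12.55 at 1 μg and 12.51, 12.56 and 12.55 at 10 μg. It varied least of the 10 genes, over 0.0483 log2, and differed by -0.011 at 10 μg (standard error 0.0468, 95% interval -0.12 to 0.096, limma's adjusted p = 0.922). Rcvrn had 11.05, 11.01 and 11.11 on the PBS arrays, 11.05, 11.17 and 11.12 at 1 μg and 11.15, 11.12 and 11.09 at 10 μg. The groups overlapped, with differences of 0.062 at 10 μg (limma's adjusted p = 0.599) and 0.053 at 1 μg (adjusted p = 0.781), each with a standard error of 0.0563.

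**Figure D2:**
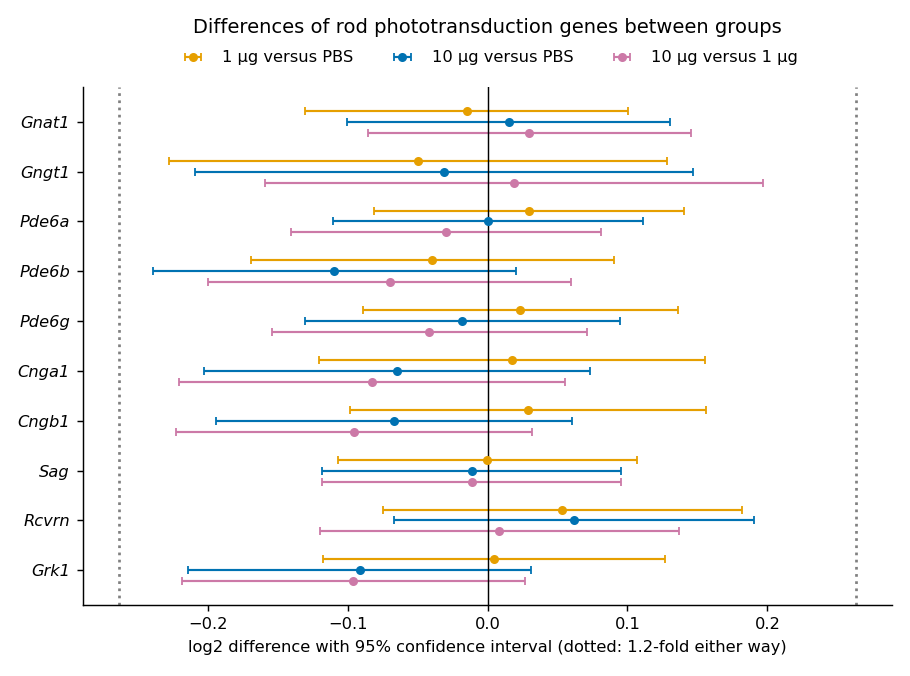
Log2 difference of each rod phototransduction gene with its 95% confidence interval from limma, for 1 μg versus PBS, 10 μg versus PBS and 10 μg versus 1 μg; dotted lines mark 1.2-fold either way. Every interval includes 0 and lies inside the dotted lines.

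At 10 μg 2 of the 10 genes, Pde6b and Grk1, had groups that did not overlap with PBS, both lower, where 8.51% of named probe sets were lower without overlap and 22.8% did not overlap in either direction. At 1 μg the groups of 0 of the 10 were apart (14.9% of named probe sets, 2.45% lower). Between 10 μg and 1 μg those of 1, Cnga1, were apart, with 10 μg lower (13.9% of named probe sets, 9.44% lower). With 3 arrays against 3 the smallest two-sided p of an exact permutation test for 1 gene is 0.1.

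The range over the 9 arrays was 0.0483 to 0.270 log2 among the 10 genes, beside a median of 0.422 over all named probe sets and 0.265 over those of mean at least 9. Within these small ranges the 10 genes did not vary as 1 block. Of their 45 pairs, 27 had a Pearson correlation above 0 over the 9 arrays, with a median of 0.065 and values from -0.63 (Gnat1 with Pde6g) to 0.86 (Cngb1 with Grk1). After the group means were removed 22 of 45 were above 0, with a median of -0.045. The highest were Cngb1 with Grk1 (0.86), Pde6b with Grk1 (0.84) and Cnga1 with Cngb1 (0.78), which were 0.73, 0.72 and 0.63 once group means were removed. The order of the pairs was different then, with Gngt1 and Rcvrn the highest at 0.83 and Sag and Grk1 the lowest at -0.98. Pde6b, Grk1 and Cngb1, the genes of the 2 highest pairs before group means were removed, were singled out after their values were seen, and the 9 points share the quantile normalization of the arrays, so the correlations are given as a description.

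**Figure D3:**
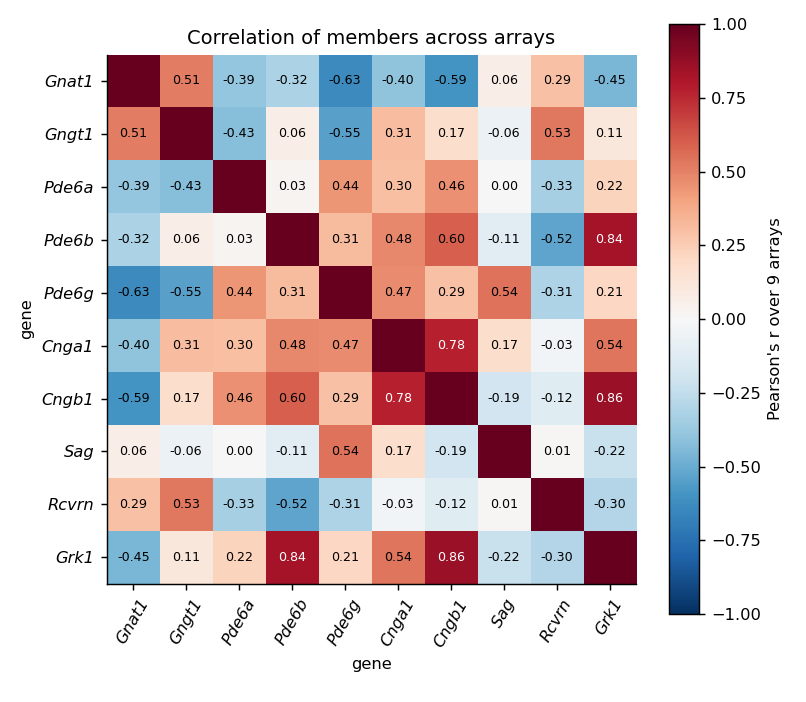
Pearson correlation of the log2 values of each pair of rod phototransduction genes over the 9 arrays, from -1 (blue) to 1 (red). Pairs run from -0.63 (Gnat1 with Pde6g) to 0.86 (Cngb1 with Grk1), and Pde6b with Grk1 is at 0.84.

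The promoters of Pde6b, Cngb1 and Grk1 are shown because they form the 2 most correlated pairs over the 9 arrays, group differences included. The sequences are the 250 bases before the gene start from RefSeq (GRCm38.p6), and capitals mark the core letters bound by 2 transcription factors of photoreceptors, the homeodomain protein CRX (TAATCC, on the other strand GGATTA) and the rod-determining leucine zipper protein NRL (TGCTGA, on the other strand TCAGCA).
Pde6b, chr5:108388123-108388372, plus strand: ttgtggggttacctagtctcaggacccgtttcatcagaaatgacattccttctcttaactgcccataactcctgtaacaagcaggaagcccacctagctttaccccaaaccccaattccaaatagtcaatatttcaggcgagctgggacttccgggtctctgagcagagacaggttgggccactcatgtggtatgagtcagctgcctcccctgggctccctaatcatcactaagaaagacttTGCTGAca
Cngb1, chr8:95306586-95306835, minus strand: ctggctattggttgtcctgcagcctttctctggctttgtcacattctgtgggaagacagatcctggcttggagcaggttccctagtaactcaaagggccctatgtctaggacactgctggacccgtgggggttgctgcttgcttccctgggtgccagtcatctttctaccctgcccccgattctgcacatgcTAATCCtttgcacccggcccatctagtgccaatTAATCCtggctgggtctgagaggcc
Grk1, chr8:13404831-13405080, plus strand: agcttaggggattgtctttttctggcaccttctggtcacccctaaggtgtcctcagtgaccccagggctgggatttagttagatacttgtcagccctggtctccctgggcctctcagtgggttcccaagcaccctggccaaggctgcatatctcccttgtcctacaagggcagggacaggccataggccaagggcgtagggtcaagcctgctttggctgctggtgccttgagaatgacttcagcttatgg
Pde6b held 1 NRL core, starting 8 bases before the gene start, Cngb1 held 2 CRX cores, starting 58 and 25 bases before it, and Grk1 held neither set of letters in this window. Of the 10 genes 6 had a promoter in the RefSeq table. The CRX core was in 4 of these 6 (Sag, Cnga1, Gngt1 and Cngb1), against 6.25% of all 32851 promoters of the same length, and the NRL core was in 2 (Sag and Pde6b), against 16.1%. Both motifs were searched on both strands, and they do not overlap in any of the 6. A match is a run of letters and not a measured binding site.

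The remaining genes of the rod cascade and of the transport of its proteins spread more widely, with log2 differences of -0.15 to 0.20 at 10 μg. The 95% interval lay within 1.2-fold for 10 of the 14 measured at 10 μg, 13 at 1 μg and 12 for 10 μg against 1 μg. Of 16 listed genes, chosen with earlier results of these data known, 14 were measured, and 0 passed the adjusted test in either direction in any of the 3 comparisons. At an unadjusted p below 0.05, 3 were higher and 1 lower at 10 μg, where 11.4% of named probe sets were higher and 5.99% lower. All 14 had a mean log2 value of at least 9. Among probe sets of that level 26.8% were below 0.05 in either direction, beside 4 of the 14 (28.6%). Their median difference was -0.026 at 10 μg and 0.024 at 1 μg. The β subunit of transducin, Gnb1, was at -0.025 at 10 μg (limma's adjusted p = 0.819). The 4 with the smallest p at 10 μg were Rd3, Pde6d, Rgs9 and Unc119, none of which passed.

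Rd3 encodes a protein that inhibits retinal guanylate cyclase and carries it to the outer segment. It had 10.12, 10.10 and 10.13 on the PBS arrays, 10.26, 10.33 and 10.26 at 1 μg and 10.35, 10.30 and 10.31 at 10 μg. Both doses lay above PBS without overlap. At 10 μg 14.3% of named probe sets were higher without overlap, and at 1 μg 14.9% were apart in either direction, 2.45% lower. The difference was 0.20 at 10 μg (standard error 0.0498, limma's adjusted p = 0.107) and 0.17 at 1 μg (adjusted p = 0.506). The 2 comparisons share the PBS arrays. Pde6d, whose product carries prenylated proteins such as PDE6 and rhodopsin kinase, had 11.17, 11.13 and 11.26 on the PBS arrays, 11.24, 11.33 and 11.33 at 1 μg and 11.32, 11.39 and 11.36 at 10 μg, with a difference of 0.17 at 10 μg (adjusted p = 0.198). Unc119, whose product carries acylated transducin α, had 11.87, 11.81 and 11.87 on the PBS arrays, 11.84, 11.92 and 11.93 at 1 μg and 11.93, 12.01 and 12.01 at 10 μg, with a difference of 0.13 (adjusted p = 0.261). Both were above PBS without overlap at 10 μg and overlapped with it at 1 μg. Rgs9, which encodes the protein that speeds the shut-off of transducin, had 11.81, 11.80 and 11.85 on the PBS arrays, 11.87, 11.83 and 11.78 at 1 μg and 11.75, 11.68 and 11.58 at 10 μg. Its 10 μg arrays were below all others, where 8.51% of named probe sets were lower than PBS without overlap and 9.44% lower than 1 μg. The difference was -0.15 against PBS (standard error 0.0604, limma's adjusted p = 0.259).

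Cones use paralogs of the same proteins, and 8 pairs of a rod gene and its cone counterpart were compared within each array, so that a change shared by both cancels. The level of such a ratio depends on the probes, and only its difference between groups is read. For 7 of the 8 pairs the log2 ratio of rod over cone gene at 10 μg differed from PBS by -0.069 to 0.11, with exact permutation p of 0.3 to 1. For Sag over Arr3, the rod over the cone arrestin, the log2 ratio averaged 2.78 ± 0.12 at 10 μg and 2.39 ± 0.078 with PBS (SD, n = 3 each), a difference of 0.39 (standard error 0.0810). All 3 of the 10 μg arrays were above all PBS arrays, which gives the smallest exact two-sided permutation p that 3 against 3 allows, 0.1, and 0.96 after Benjamini-Hochberg adjustment over the 16 tests of 8 pairs at 2 doses. The difference lay in Arr3, which had 10.09, 10.25 and 10.15 on the PBS arrays, 10.19, 9.90 and 10.03 at 1 μg and 9.75, 9.65 and 9.87 at 10 μg. All 10 μg arrays of Arr3 were below all PBS arrays, where 8.51% of named probe sets were lower without overlap. Arr3 was at 0.755-fold on average, which did not pass (standard error 0.0917, limma's adjusted p = 0.0955), whereas Sag was at 0.992-fold. At 1 μg the ratio differences of the 8 pairs were -0.071 to 0.12, with exact permutation p of 0.2 to 0.9. Of the 8 ratios 2 share Pde6c, the cone catalytic subunit, as denominator.

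**Figure D4:**
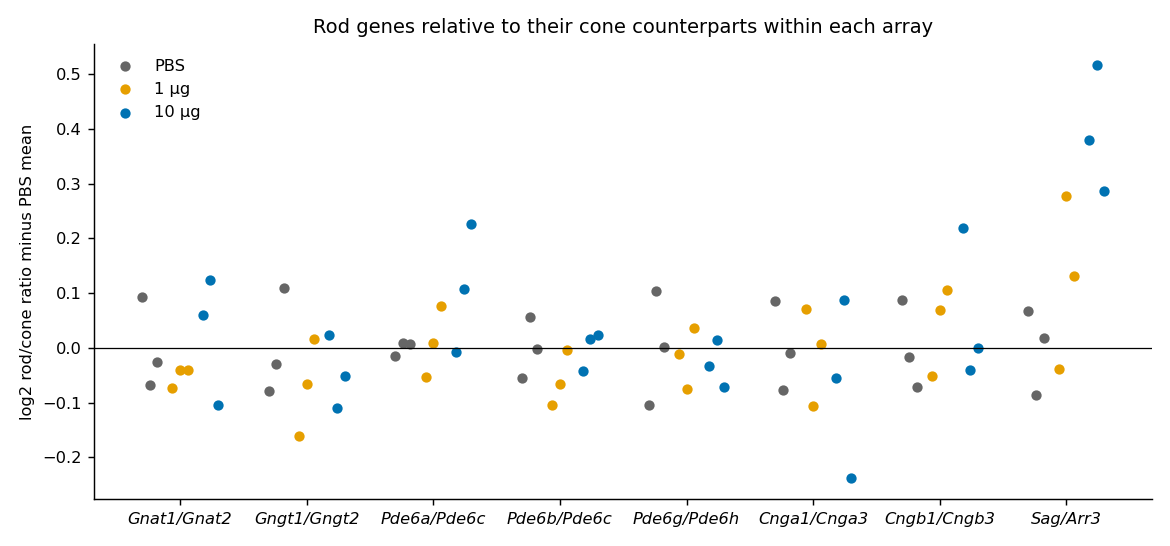
Log2 ratio of each rod gene over its cone counterpart within each array, minus the mean of the PBS arrays for that pair; each point is an array, with PBS, 1 μg and 10 μg from left to right in each pair. The Sag/Arr3 points at 10 μg lie above the PBS points, and the other pairs overlap.

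Markers of lens, skeletal muscle, ganglion cells and the retinal pigment epithelium varied over wider ranges across the arrays than the 10 rod genes. The log2 of the summed linear values of 12 lens markers (12 of 12 measured) was 10.54 to 14.46 on the PBS arrays, 10.29 to 12.89 at 1 μg and 10.91 to 12.98 at 10 μg. For 10 skeletal muscle markers (10 of 10) it was 9.04 to 11.89 with PBS, 9.05 to 9.72 at 1 μg and 9.01 to 10.04 at 10 μg. For ganglion cell markers (7 of 8 measured) it was 11.80 to 11.95, 11.94 to 12.19 and 12.14 to 12.19 in that order of groups, and for markers of the retinal pigment epithelium (8 of 8) 11.44 to 11.78, 11.38 to 11.94 and 11.48 to 12.31. In 10 μg replicates 1, 2 and 3 the pigment epithelium sums were 11.48, 12.31 and 12.18, and those of Müller glia markers 13.36, 13.50 and 13.48. Replicates 2 and 3 also had the lower Grk1 and Cngb1 values of that group. On the PBS arrays both sums were highest in replicate 2, where Grk1 was highest and Cngb1 lowest. The relation was not tested. The ganglion cell sums at 10 μg were all above those with PBS. So were the sums of markers of amacrine and horizontal cells (11.57 to 11.70, PBS 11.32 to 11.47), microglia (9.39 to 9.51, PBS 9.19 to 9.31) and endothelium (10.54 to 10.59, PBS 10.37 to 10.47). Sums of bipolar cell markers (11.9360 to 12.0153, PBS 12.0225 to 12.1035) and of the cone counterparts (11.39 to 11.48, PBS 11.57 to 11.64) were all below PBS. Of the 7 ganglion cell genes 6 were higher without overlap at 10 μg (14.3% of named probe sets), and 0 passed the adjusted test. Sums of cone markers (8 of 8 measured, 13.19 to 13.33 over all groups) and of the 6 other rod markers (13.78 to 13.90) varied less than these lists but more than the 10 rod genes. The same sum over the 10 rod genes was 15.33 to 15.35 with PBS, 15.33 to 15.35 at 1 μg and 15.31 to 15.32 at 10 μg. All 10 μg sums of the rod genes (highest 15.3228) were thus below all PBS sums (lowest 15.3267) and all 1 μg sums (lowest 15.3292), by small distances. Over the 9 arrays the mean of the 10 centred rod genes correlated with that of the lens markers at r = -0.23 and with that of the muscle markers at r = 0.054. No lens or ganglion cell marker had a mean under 5, and 1 muscle and 1 pigment epithelium marker did. The part of these cells in the values of the rod genes was not tested beyond the lens. With the lens level as a covariate, an alternative added after seeing the data, 0 of the 10 genes passed in any comparison, and their median difference was -0.042 at 10 μg and 0.00078 at 1 μg.

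**Figure D5:**
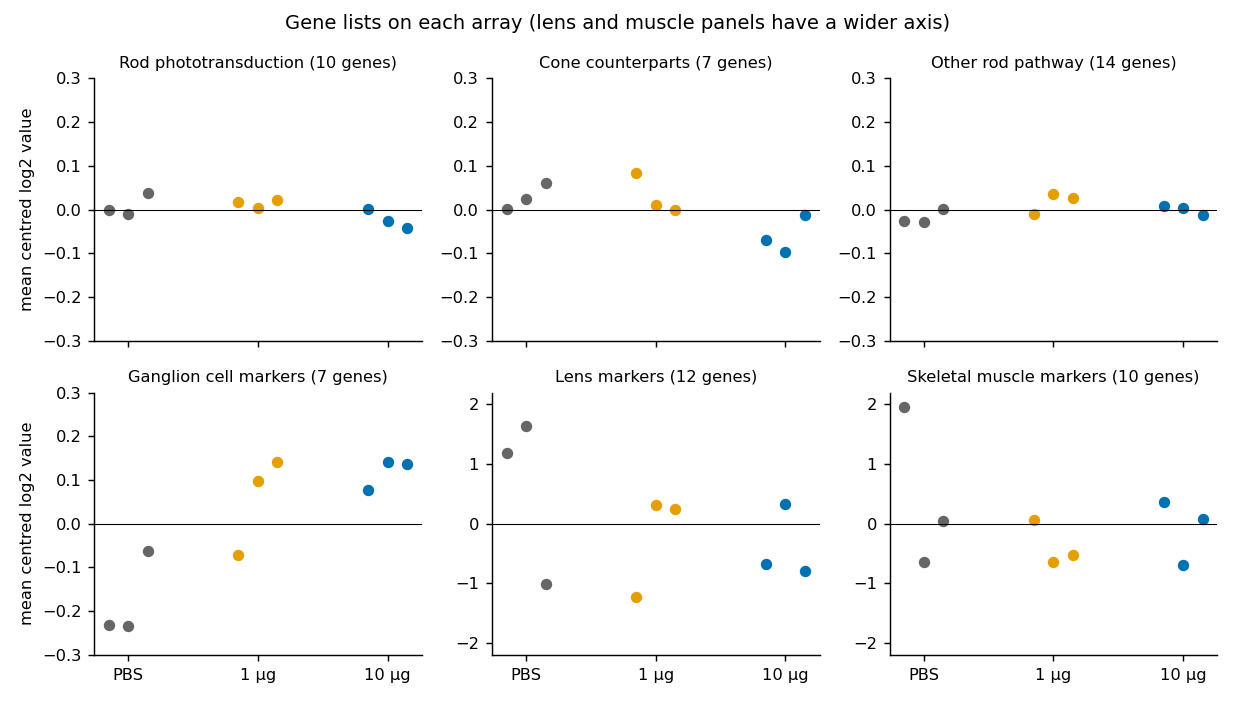
Mean of the centred log2 values of each gene list on each array, for PBS, 1 μg and 10 μg of anti-C5 antibody; points are arrays, and the lens and muscle panels have a wider axis than the other 4. The 10 rod genes stay within -0.042 and 0.037 on every array, whereas the lens markers run from -1.23 to 1.64.

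The mean of the 10 genes, each centred on its own mean, ran from -0.042 (10 μg replicate 3) to 0.037 (PBS replicate 3). Of 22170 other genes, those with the highest Pearson correlation with this mean over the 9 arrays were Depdc5, a subunit of the GATOR1 complex that restrains mTORC1 (r = 0.96), Safb, a nuclear matrix protein (r = 0.96), Ccdc25 (r = 0.96), Stat2, a transcription factor of interferon signalling (r = 0.95), and Paip1, a partner of the poly(A)-binding protein (r = 0.94). In all, 30 of the 22170 genes had r above 0.9, and the median was -0.012. The likeness is a description over 9 arrays that share 1 normalization.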

How the data were processed

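Retinal RNA was measured in 9 pools of 4 mouse retinas, 3 each for PBS, 1 μg and 10 μg of anti-C5 antibody, on GeneChip Mouse Gene ST arrays, whose version differs between the paper and GEO's platform annotation. The authors extracted images with Affymetrix Command Console and normalized them with Robust Multi-Average (background correction, quantile normalization, median polish) in the program Affymetrix Expression Console 1.1. Deposited values are log2 expression; scanner images were not analysed here, so background correction and scan batch could not be varied. No column was left out of the sample mapping. Arrays have no read depth, and their number limits the precision. The genome build is not given in the sources used here.

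Each gene was taken by its probe set of highest mean among those naming it alone in GEO's platform annotation (23521 name 1 gene, 1820 several, 16004 none). Groups were compared with the package limma 3.58.1 (R 4.3.3), fitted to 25341 named probe sets and every array, with Benjamini-Hochberg adjustment within each comparison at 0.05. Ratios of rod over cone genes were tested by exact permutation. The 10 genes, the lists and the rules for named genes (all 10; every cone counterpart; of the rod list those that passed, otherwise the 4 with the smallest p at 10 μg; the 5 genes most alike) were chosen with earlier results of these data known. The steps were tested on simulated data. Alternatives were 2 scalings after the authors' (each array centred on its median, cyclic loess), an intensity trend, array weights, a robust prior, only the 2 groups compared, the replicate number as a block, dim probe sets left out (mean under 5), all probe sets, those of 1 gene, averaged probe sets, each array left out and, added after seeing the data, the lens level as a covariate. Promoters came from RefSeq (GRCm38.p6). The methods call the pools biological replicates, the number of mice is not settled, and p-values measure the spread between pools.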

Additional observations from a re-analysis of the deposited data

How the results depend on the processing

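None of the 10 rod phototransduction genes passed the adjusted test under any of the 21 alternatives in any of the 3 comparisons, the left-out arrays included. The lowest adjusted p over the alternatives was 0.2 (limma; Pde6b at 10 μg, over alternatives 0.2 to 0.596). The difference of Pde6b at 10 μg ran from -0.14 to -0.066 and that of Grk1 from -0.13 to -0.048. The median of the 10 at 1 μg was -0.034 with cyclic loess, beside 0.011; the cause was not tested.

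The number of all named probe sets that passed at 10 μg, 5, moved with most settings: 288 with each array centred on its median (224 higher and 64 lower, beside 4 and 1), 120 with cyclic loess, 494 with an intensity trend, 211 with dim probe sets left out, 2 with all probe sets, 1 with each of a robust prior, array weights, probe sets of 1 gene and averaged probe sets, and 0 with the replicate block. It ran from 0 to 328 when 1 array was left out: 0 without PBS replicate 1 or 2 or 10 μg replicate 1 or 2, 2 without PBS replicate 3, 178 without 1 μg replicate 1, 249 without 1 μg replicate 2 and 328 without 10 μg replicate 3. The cause was not tested. At 1 μg the count, 0, ran from 0 to 2 without 1 array, 2 being without PBS replicate 3. With the replicate block the count of the 10 rod genes that passed stayed at 0. Arrays of the same number did not deviate together (r of their deviations from group means -0.20 to 0.13 over 9 pairs, with 0.32 the highest between different numbers), so the numbers are not taken as pairs. The exact test of the rod against cone pairs cannot go below 0.1 and so shows nothing about stability; the Sag over Arr3 difference at 10 μg ran from 0.33 to 0.45 over the 12 alternatives run. The lowest unadjusted p among the 10 rod genes under any alternative was 0.0285 (limma with an intensity trend, 10 μg). Each of the 10 genes has 1 probe set, so averaging probe sets leaves their values as they are.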

Other observations

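Of the 25341 named probe sets, 13555 (53.5%) hold exactly equal values on 2 or more of the 9 arrays, and 478 hold 1 value on all 3 PBS arrays. Among the rod genes, 4 of 10 (Pde6a, Pde6b, Cngb1 and Sag) have such ties, Pde6a with 6 distinct values over 9 arrays and the others with 8. The PBS SDs of Pde6a and Sag rest on fewer distinct values than arrays. The ties of Pde6b and Cngb1 are between a 1 μg and a 10 μg array, so their within-group SDs are not affected.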
